A study of Homo sapiens with 12 samples.

Results

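The stem and progenitor genes examined here are CD34, KIT, GATA2, MECOM, HLF, MSI2, ANGPT1, PROM1, SPINK2 and HOPX, 10 genes used as markers or regulators of blood stem and early progenitor cells. Every region of the H3K9ac table that overlapped the RefSeq gene body of a member, with 10 kb added on each side, was taken. This gave 44 of the 47648 regions, at 9 of the 10 genes, and PROM1 had no region. A region within 1 kb of a RefSeq start of the member was called a start region (10 regions), any other region touching the gene body an internal region (28), and the rest flanking regions (6). The table held 3 libraries of MOLM-13 cells given the solvent DMSO and 3 of the same line after 4 days of WM-1119 at 4 µM. WM-1119 is a small molecule inhibitor of the lysine acetyltransferase KAT6A, and the study set out to learn how the epigenome of acute myeloid leukaemia cells responds when KAT6A is inhibited. MOLM-13 is a single established human leukaemia line of monocytic type, known for its KMT2A-MLLT3 fusion and for a FLT3 gene with an internal tandem duplication. Whether replicates were separate cultures is not given in the labels, so that p-values measure the spread between these libraries, which may be technical.

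H3K9ac, acetylation of lysine 9 of histone H3, marks active promoters and, more weakly, active enhancers. Stem and progenitor cells are known to use transcription factors such as GATA2, MECOM and HLF, the receptor tyrosine kinase KIT and the RNA-binding protein MSI2, while CD34 and PROM1 encode surface glycoproteins by which such cells are sorted. Myeloid maturation is accompanied by loss of most of these products, and leukaemias that carry KMT2A fusions often resemble more mature progenitors.

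Levels are in CPM, each library being scaled to sum to 1000000 over the listed regions, and a log2 change is WM-1119 minus DMSO on the log2(CPM + 1) scale, which understates changes of weak regions. A mean in these populations does not tell fewer marked cells from less mark per cell. The limma test covered the 44763 regions whose mean reached 1 CPM. Recovered reads in regions ranged from 719329 (DMSO replicate 1) to 12705349 (WM-1119 replicate 3) over 5 libraries, and 3 reads, the limit that a count of 0 allows, were worth 4.17 CPM in the first and 0.236 CPM in the second, for counting error only. DMSO replicates 1 and 2 stood apart: regions below the median strength took 8.95% and 7.19% of their CPM, against 2.19% to 3.35% in the other 4 libraries. Over all tested regions the median log2 change was -0.47, and it was -0.62 for regions away from RefSeq starts beside 0.06 for regions within 1 kb of one. That median was 0.01 with quantile normalization, 0.30 with median centring and 0.08 with DMSO replicate 3 as the sole control. At a Benjamini-Hochberg adjusted p under 0.05, 0.0603% of tested regions passed as lower and 0% as higher (27 and 0 regions), while with median centring 0 passed as lower and 2 as higher. The labelled cell type was checked on start regions. All 9 myeloid markers (CD33, SPI1, LYZ, MPO, CSF3R, CD14, ITGAM, FLT3 and CEBPA) had one, with a summed 854 to 1220 CPM under DMSO and 1020 to 1210 CPM under the inhibitor. Of these, 6 reached a mean of 10 CPM, while MPO, CD14 and ITGAM held 9.56, 7.13 and 2.66 CPM. CD3E and COL1A1, markers of other cell types, held 4.26 and 4.83 CPM. HBB, KLF1, PF4, ITGA2B and GP9 had none, and the T cell, B cell, and fibroblast or epithelial markers summed to at most 9.24, 8.34 and 18.1 CPM.

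Start regions of the 10 genes fell into a stronger and a weak set. Taking the strongest start region of each gene, GATA2, MSI2 and ANGPT1 had a mean of 31.0 to 80.6 CPM over the 6 libraries. Those of KIT, SPINK2, HOPX, HLF and MECOM held at most 5.75 CPM, and CD34 and PROM1 had no region at any start. Among 15811 coding genes with a RefSeq start, 64.4% had a start region. Per kb of region, which allows levels of different genes to be compared, ANGPT1 reached 23.2, MSI2 20.8 and GATA2 19.7 CPM per kb, against a median of 26.4 (quartiles 17.2 and 35.7) for coding genes with a start region. KIT, HOPX, SPINK2, HLF and MECOM held 9.92, 8.91, 6.02, 5.81 and 3.69 CPM per kb, at percentiles 11.1, 8.61, 2.07, 1.72 and 0.196. The background, taken as the 10th percentile of regions of over 500 and up to 1200 bp, was 3.36 to 8.05 CPM per kb, so SPINK2, HLF and MECOM lay within its range. The HLF and MECOM regions are narrower, at 343 and 147 bp. On chromosome 8, where ANGPT1 lies, the background was higher in each library, at 5.24 to 20.5 CPM per kb. The per kb level of ANGPT1 therefore compares less directly with those of the other genes. A gene without a listed region has no value in the table, which does not show that it lacks acetylation.

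**Figure D1:**
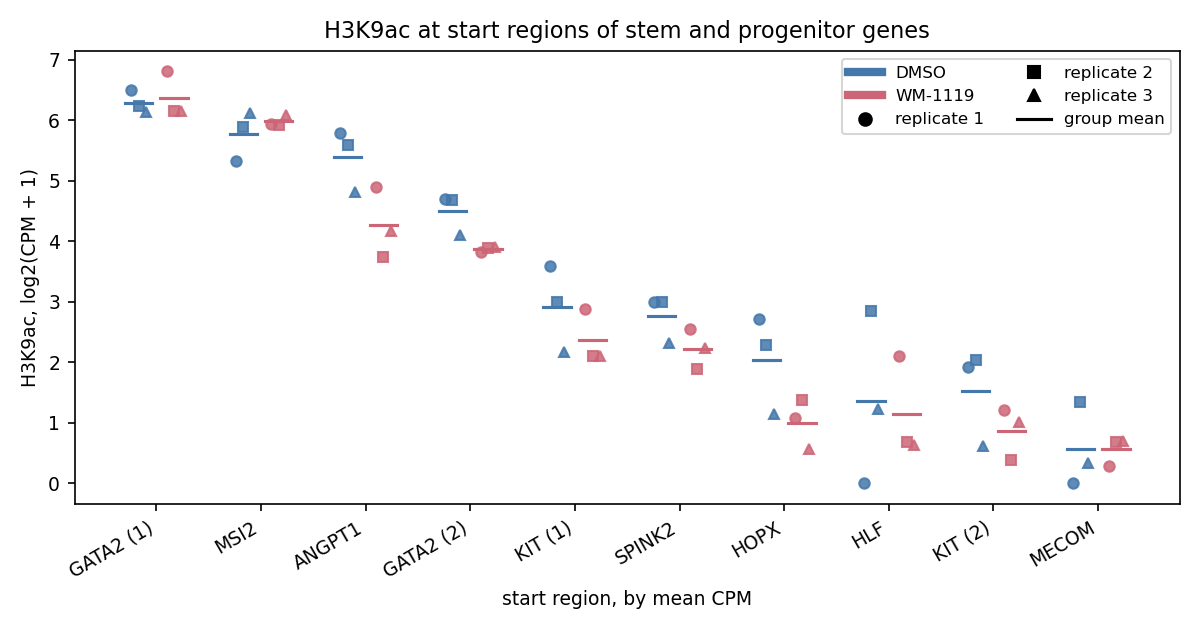
H3K9ac at the 10 start regions of 8 member genes, as log2(CPM + 1) on the vertical axis, ordered by mean CPM; each symbol is a library (DMSO blue, WM-1119 red) and each bar a group mean. GATA2 (1), MSI2, ANGPT1 and GATA2 (2) stand above the other 6 regions in every library, where GATA2 (1) and KIT (1) are the stronger start regions of those genes.

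**Figure D2:**
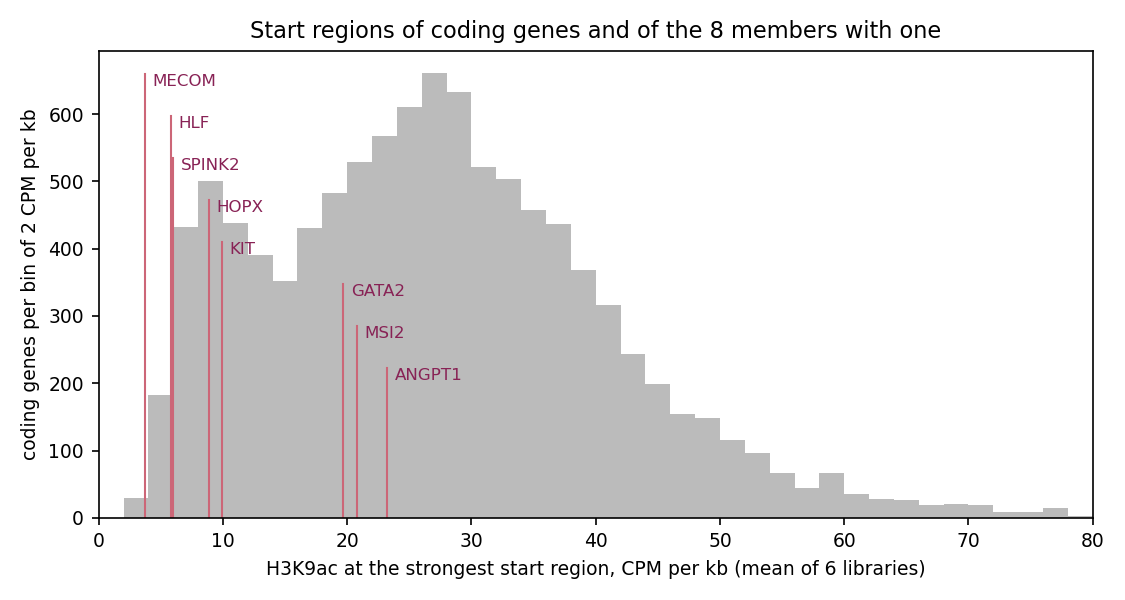
Coding genes by the level of their strongest start region, in CPM per kb averaged over 6 libraries (bins of 2 CPM per kb; the axis ends at 80), with the 8 members that had a start region as vertical lines, whose heights carry no value. GATA2, MSI2 and ANGPT1 lie at 19.7 to 23.2 CPM per kb, below the median of 26.4, and the other 5 lie at 3.69 to 9.92.

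GATA2, a zinc finger factor needed for stem cell survival, carried the set's region of highest mean CPM, though not of highest CPM per kb. It has 2 RefSeq starts on the minus strand of chromosome 3, and each lay in a region of its own. The region over the inner start (128486809 to 128490898) held 89.0, 73.9 and 69.2 CPM in DMSO replicates 1, 2 and 3 and 111, 70.0 and 70.0 CPM under the inhibitor replicates 1, 2 and 3. The groups overlapped, with a single high WM-1119 library. The log2 change was 0.09 ± 0.18 (SE), with a limma adjusted p of 0.776, and it turned to -0.13 without WM-1119 replicate 1 and to -0.09 with quantile normalization. The region over the outer start (128491827 to 128493477) held 25, 24.6 and 16.2 CPM under DMSO and 13.2, 13.8 and 13.9 CPM under the inhibitor. Here every WM-1119 library lay below every DMSO library. The fitted log2 change, -0.63 ± 0.30 (SE), did not pass by limma, with an adjusted p of 0.365 (unadjusted p = 0.0399). With DMSO replicate 3 as the sole control it was -0.23, and with median centring 0.15. Both regions also overlap GATA2-AS1, the antisense gene, whose signal cannot be told apart from that of GATA2 in histone data. A flanking region 4060 bp outside the gene, within GATA2-AS1, held 19.5, 21.6 and 7.75 CPM under DMSO and 12.8, 13.8 and 8.74 CPM under the inhibitor, with overlapping groups and a log2 change of -0.34 ± 0.35 (SE). Nearer the gene, 2621 bp outside it, a region of 147 bp held 2.78, 1.54 and 1.2 CPM under DMSO and 0.66, 0.2 and 0.236 CPM under the inhibitor, with at most 3 reads in 4 of 5 libraries.

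MSI2, an RNA-binding translation regulator first studied for its part in stem cell self-renewal, had the most regions of the set, 22 in all. Its start region at chromosome 17 position 57255520 to 57258343 spans 2 RefSeq starts and also overlaps the gene LOC101927510. It held 38.9, 58.5 and 68.2 CPM under DMSO and 60.3, 59.7 and 67.1 CPM under the inhibitor. DMSO replicate 1, the shallowest library, was the low value, and the other 5 lay between 58.5 and 68.2 CPM. The log2 change was 0.21 ± 0.19 (SE), with a limma adjusted p of 0.535, and it was -0.02 without DMSO replicate 1 and -0.13 with DMSO replicate 3 as the sole control. The promoter windows of GATA2 and MSI2 that lie inside these regions are shown to be set beside the windows of KIT and PROM1, which no listed region overlaps. Each runs 5′ to 3′ from 250 bases before to 50 after a RefSeq start (GRCh38.p14), with CG dinucleotides in capitals. The GATA2 inner window is chr3:128488481-128488780, minus strand, with 22 CG. The MSI2 downstream window is chr17:57256769-57257068, plus strand, with 34 CG.
GATA2 inner start: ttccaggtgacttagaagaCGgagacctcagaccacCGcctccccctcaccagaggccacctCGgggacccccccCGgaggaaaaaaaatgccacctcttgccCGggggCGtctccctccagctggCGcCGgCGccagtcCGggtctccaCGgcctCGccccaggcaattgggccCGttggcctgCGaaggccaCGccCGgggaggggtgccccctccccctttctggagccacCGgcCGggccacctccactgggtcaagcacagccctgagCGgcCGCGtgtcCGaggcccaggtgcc
MSI2 downstream start: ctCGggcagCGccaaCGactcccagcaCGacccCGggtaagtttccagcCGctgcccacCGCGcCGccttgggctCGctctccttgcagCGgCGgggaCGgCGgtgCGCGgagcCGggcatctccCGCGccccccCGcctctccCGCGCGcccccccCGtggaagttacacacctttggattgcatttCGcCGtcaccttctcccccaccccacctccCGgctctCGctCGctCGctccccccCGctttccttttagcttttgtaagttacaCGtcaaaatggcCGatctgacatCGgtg

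Inside MSI2, away from its start, 21 regions lay over 414 kb of the gene body, which is 446 kb long. They were weak, with means of 1.00 to 13.7 CPM. In 1399 coding genes of at least 200 kb the median was 2 regions per gene, or 0.444 regions per 100 kb. MSI2, with its start region counted, had 4.94 regions per 100 kb and stood at percentile 95.4 of those genes. The group of 7 regions within 4.32 kb, about 300 kb into the gene, also overlapped the uncharacterised gene LOC107984993. Its summed level was 38.9, 37.7 and 24.9 CPM under DMSO and 15.2, 17 and 17.3 CPM under the inhibitor, so that the WM-1119 libraries all lay below the DMSO libraries. Taken singly, the regions at 57559060, 57559689 and 57560067 had overlapping groups. Away from RefSeq starts, 16.3% of tested regions had all WM-1119 libraries lowest. The chromosome 17 background was 7.57 and 7.43 CPM per kb in DMSO replicates 1 and 2, against 3.23 to 4.25 in the other libraries. Its part in the summed difference was not tested. The strongest of the 7, at 57557473 to 57558866, held 19.5, 16.2 and 15.6 CPM under DMSO and 7.04, 12.3 and 9.84 CPM under the inhibitor. Its log2 change was -0.78 ± 0.35 (SE) and did not pass (limma adjusted p = 0.354). It was -0.66 with DMSO replicate 3 as the sole control, -0.31 with quantile normalization and -0.01 with median centring, and it passed without DMSO replicate 3 (limma adjusted p = 0.0316). The region at 57604782 to 57606190, which also overlaps the antisense gene MSI2-AS1, was of the same strength and changed little, at 11.1, 22.3 and 9.36 CPM under DMSO and 14.5, 12.5 and 12.3 CPM under the inhibitor (log2 change -0.02 ± 0.35, SE). At 57636852 to 57637983 the DMSO libraries held 25, 10.0 and 5.48 CPM and the WM-1119 libraries 7.49, 7 and 7.32 CPM. A single DMSO library carries that difference, and the log2 change of -0.57 ± 0.43 (SE) became 0.35 with DMSO replicate 3 as the sole control. Of the 21 internal regions 20 were lower in WM-1119, with a median log2 change of -0.57. Of all tested regions away from RefSeq starts 90.2% were lower, with a median of -0.62, so the internal MSI2 regions lie near that background. With DMSO replicate 3 as the sole control their median was 0.07, beside 0.08 over all regions.

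**Figure D3:**
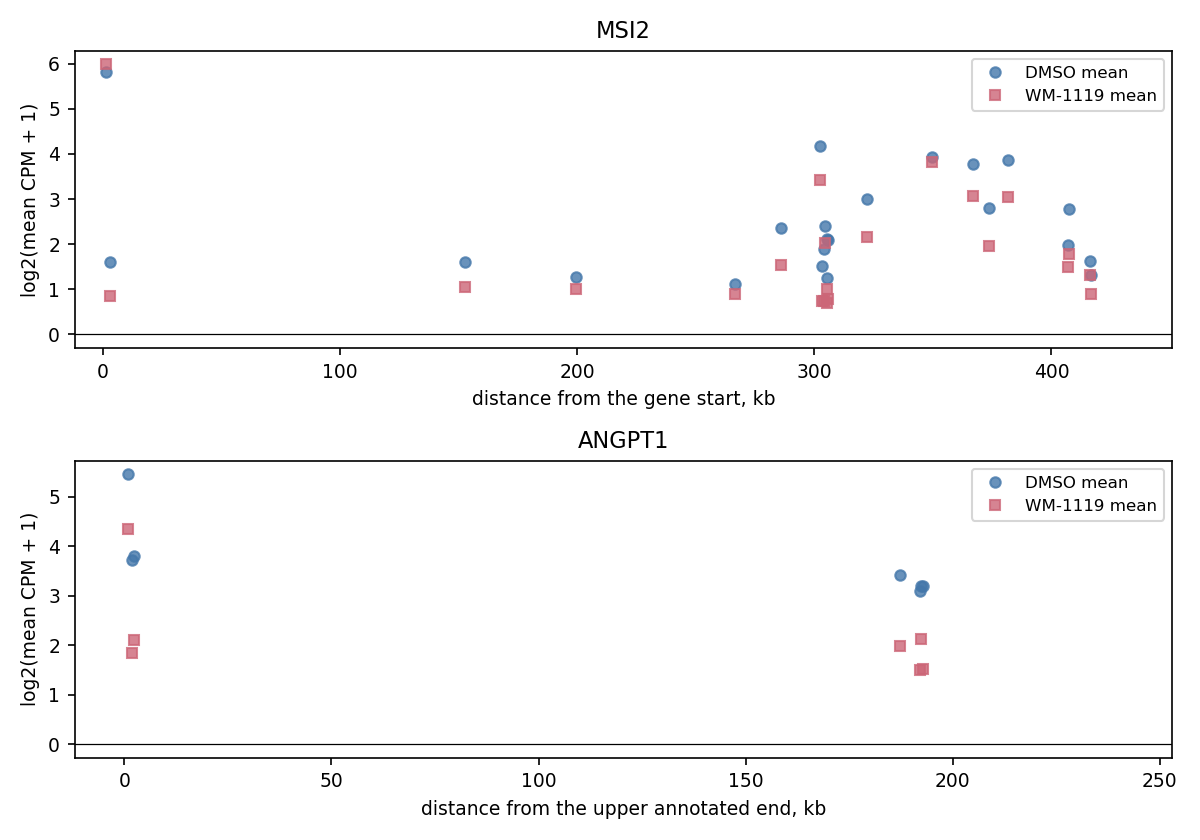
Mean H3K9ac of each region, as log2(mean CPM + 1), against distance in kb from the first annotated start of MSI2 (top, 22 regions) and from the upper annotated end of ANGPT1 (bottom, 7 regions), with DMSO means as blue circles and WM-1119 means as red squares. MSI2 shows a strong start with the 2 groups close together and weak regions around 300 kb and beyond, and all 7 ANGPT1 regions have the lower mean in WM-1119.

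CD34, PROM1 and KIT encode surface proteins by which stem cells are isolated: a sialomucin, a glycoprotein of membrane protrusions, and the receptor for stem cell factor. In MOLM-13 cells the listed regions near CD34 and at KIT were weak, and PROM1 had no listed region and so no value. CD34 had no start or internal region, and its single region lay 7254 bp beyond the gene's lower end, at chromosome 1 position 207873107 to 207873718. That region held 9.73, 7.70 and 3.74 CPM under DMSO and 7.04, 4.6 and 3.70 CPM under the inhibitor, with overlapping groups (log2 change -0.35 ± 0.49, SE; limma adjusted p = 0.66). At KIT, on chromosome 4, 2 small regions lay 417 and 723 bp into the gene and none covered the start site. The stronger (54658680 to 54659259) held 11.1, 6.93 and 3.48 CPM under DMSO and 6.38, 3.30 and 3.31 CPM under the inhibitor. This amounts to 8, 9 and 26 reads in the DMSO libraries, so counting error alone is wide. The log2 change was -0.55 ± 0.51 (SE), and 0.20 with DMSO replicate 3 as the sole control. The weaker (54658374 to 54658563) held 2.78, 3.08 and 0.535 CPM under DMSO and 1.32, 0.3 and 1.02 CPM under the inhibitor, with 2, 4 and 4 DMSO reads. An internal KIT region at 54687735 to 54688767 held 13.9, 9.24 and 4.28 CPM under DMSO and 3.30, 3.70 and 5.04 CPM under the inhibitor, with overlapping groups. Its log2 change, -0.91 ± 0.49 (SE), had a limma adjusted p of 0.385 and was -0.09 with DMSO replicate 3 as the sole control. PROM1, with 4 RefSeq starts on chromosome 4, had no region within 10 kb.

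The CG content of a promoter, which commonly goes with acetylation, is given as a description of the start windows. Of 9725 coding genes with at least 20 CG dinucleotides in a start window of 300 bases, 83.7% had a start region, against 10.1% of the 2256 genes with at most 4. The KIT window held 38 CG, the highest number among the members, and the best windows of HLF, PROM1 and CD34 held 31, 32 and 19. Those of GATA2 and MSI2 held 29 and 34, and those of SPINK2, MECOM and HOPX 27, 19 and 15. The KIT window (chr4:54657707-54658006, plus strand) and the CG-richest PROM1 window (chr4:16083680-16083979, minus strand) are shown for comparison with those of GATA2 and MSI2, 5′ to 3′ with CG in capitals; no listed region overlaps either.
KIT: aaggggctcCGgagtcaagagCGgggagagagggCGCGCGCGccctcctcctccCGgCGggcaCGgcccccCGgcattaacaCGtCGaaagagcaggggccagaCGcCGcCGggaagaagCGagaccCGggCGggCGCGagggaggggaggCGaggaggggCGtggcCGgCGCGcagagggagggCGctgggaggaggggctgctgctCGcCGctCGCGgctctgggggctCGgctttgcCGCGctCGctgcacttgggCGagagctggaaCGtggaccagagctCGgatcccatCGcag
PROM1: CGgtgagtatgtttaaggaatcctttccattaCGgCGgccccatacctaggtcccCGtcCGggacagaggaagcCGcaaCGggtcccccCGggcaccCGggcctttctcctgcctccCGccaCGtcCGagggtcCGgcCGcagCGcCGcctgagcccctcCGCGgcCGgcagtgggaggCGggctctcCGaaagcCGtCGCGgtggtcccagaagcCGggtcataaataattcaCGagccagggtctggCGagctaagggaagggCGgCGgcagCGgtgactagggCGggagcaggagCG
In all 19 start windows of the 9 members with a RefSeq entry, 5 motifs were searched on both strands. The letters GATAA, part of the GATA factor motif, occurred in 2 MECOM windows, beside 22.7% of all 35116 start windows of that length. TGTGGT (RUNX) occurred in 1 MECOM window (13.1% of all). The promoter box TATAAA occurred in 1 HLF window (11.5%). GGAAGT (ETS) occurred in 2 MSI2 windows and 1 HOPX window (22.8%). CANNTG (E-box) occurred in 12 of the 19 windows (63.2%), beside 68.7% of all windows.

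MECOM and HLF, stem cell transcription factors of the zinc finger and PAR bZIP families, each had a single listed region, weak and of few reads. The MECOM region of chromosome 3 (169663834 to 169663980) lay 122 bp before the outermost of 3 RefSeq starts. It held 0, 1.54 and 0.267 CPM under DMSO and 0.220, 0.600 and 0.630 CPM under the inhibitor, which is 0, 2 and 2 reads in the DMSO libraries. Its mean of 0.543 CPM was under the limit for testing, and 4 of 5 libraries with recovered reads had at most 3. No region lay inside the MECOM gene, which spans 580 kb, so its inner starts have no value. HLF, on chromosome 17, had a region 80 bp into the gene (55265040 to 55265382) with 0, 6.16 and 1.34 CPM under DMSO and 3.30, 0.600 and 0.551 CPM under the inhibitor. These values spread more within each group than between the groups (log2 change -0.22 ± 0.60, SE; limma adjusted p = 0.829), and with 1 library left out the log2 change ran from -0.89 to 0.53.

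SPINK2 and HOPX lie near each other on chromosome 4 and encode a serine protease inhibitor and a small homeodomain protein that does not bind DNA, both abundant as transcripts in stem cells. The SPINK2 start region (56821335 to 56822141) held 6.95, 6.93 and 4.01 CPM under DMSO and 4.84, 2.70 and 3.70 CPM under the inhibitor, with overlapping groups. Its log2 change was -0.55 ± 0.51 (SE), with a limma adjusted p of 0.537. The change became 0.20 with quantile normalization. Of 3 flanking regions beyond the SPINK2 end the one 4989 bp away had the lowest unadjusted limma p, 0.00189 (adjusted p = 0.292). It held 6.95, 8.47 and 1.74 CPM under DMSO and 0.440, 0.900 and 0.551 CPM under the inhibitor, so the groups did not overlap, but DMSO replicates 1 and 2 rest on 5 and 11 reads. The strongest flanking region, 9474 bp away and within LOC105377668, held 5.56, 11.6 and 2.67 CPM under DMSO and 4.62, 4.6 and 3.23 CPM under the inhibitor, and the remaining one held 0 to 8.47 CPM over the 6 libraries. HOPX had a single region, 268 bp from its downstream start (56655992 to 56656249), with 5.56, 3.85 and 1.2 CPM under DMSO and 1.10, 1.60 and 0.472 CPM under the inhibitor. The region also overlaps LOC124900708. The groups overlapped, and the log2 change, -1.04 ± 0.58 (SE) with a limma adjusted p of 0.389, was -0.14 with DMSO replicate 3 as the sole control.

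ANGPT1, which encodes angiopoietin 1, the ligand by which the TEK receptor keeps stem cells and vessels quiescent, had the most negative fitted log2 change at a start region on the log2(CPM + 1) scale, -1.13 beside -1.04 at HOPX. That order turned with a pseudocount of 0.1 CPM (-1.17 beside -1.55), by edgeR (-0.40 beside -1.48), without DMSO replicate 3 (-1.42 beside -1.49) and without WM-1119 replicate 2 (-0.87 beside -1.23). ANGPT1 lies on chromosome 8, and no RefSeq start of it was used, so that a region within 1 kb of an annotated end of the gene stood for the start. The region at the upper end, 107496486 to 107497823, held 54.2, 47.0 and 27.1 CPM under DMSO and 28.6, 12.4 and 16.9 CPM under the inhibitor. WM-1119 replicate 1 lay just above DMSO replicate 3, and the other 2 WM-1119 libraries lay below all DMSO libraries. Means were 42.8 ± 14.0 and 19.3 ± 8.37 CPM (SD, n = 3 each). The log2 change here was -1.13 ± 0.26 (SE), and it did not pass by limma (adjusted p = 0.0627), although the unadjusted p was 5.12e-05. It passed without DMSO replicate 3 (limma adjusted p = 0.006), without WM-1119 replicate 1 (0.00433) and after a background was subtracted from each library (0.0288). With a replicate block it passed too (limma adjusted p = 0.000315), though the labels do not say that replicate numbers pair the libraries. Leaving the fit with 1 DMSO library aside, the adjusted p over the alternatives ran from 0.000315 (limma) to 0.858 (edgeR). The log2 change was negative in each of the 16 alternatives, and smaller in size with median centring (-0.36) and by edgeR (-0.40).

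The remaining 6 ANGPT1 regions were weaker and lower as well. A pair of them adjoins the start region. That at 107495321 to 107495783 held 13.9, 20 and 5.21 CPM under DMSO and 7.71, 0.300 and 1.97 CPM under the inhibitor (log2 change -1.95 ± 0.55, SE; limma adjusted p = 0.24). That at 107495973 to 107496344 held 22.2, 9.24 and 5.08 CPM under DMSO and 4.18, 1.90 and 1.73 CPM under the inhibitor (log2 change -1.71 ± 0.51, SE; limma adjusted p = 0.268). In the first the groups overlapped and in the second they did not. The other 4 regions form a group of 5.91 kb towards the far end of the gene, and summed to 54.2, 32.3 and 14.0 CPM under DMSO and 14.1, 7.10 and 8.82 CPM under the inhibitor. All 7 log2 changes were negative, from -1.95 to -0.92, with a median of -1.47, and 6 had an unadjusted limma p under 0.05. Among chromosome 8 regions of 2 to 5 CPM, 99.1% were lower, with a median of -0.91 and 175 of 756 lower at that p. Among those of 5 to 10 CPM, 99.6% were lower, with a median of -0.95 and 191 of 462 lower at that p. Nearly all regions of such strength on that chromosome thus had a negative sign.

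On chromosome 8 the background of DMSO replicates 1 and 2 reached 20.5 and 17 CPM per kb, where the other 4 libraries had 5.24 to 8.30, and the ANGPT1 regions held 16.3 to 23.2 CPM per kb on average. For chromosome 8 regions of 20 to 50 CPM the median log2 change was -0.56, where all regions of that strength had 0.00. Of these 172 regions, 7 had a more negative log2 change than the ANGPT1 start region. With DMSO replicate 3 as the sole control, which leaves out the 2 libraries of high background, the start region was at -0.55 beside a median of 0.19 for the 172 regions, and 5 were more negative. The spread in that fit comes from the 3 WM-1119 libraries alone, so its adjusted p of 0.873 by limma carries little information. The 7 ANGPT1 regions had a median of -0.55 in that fit and all were negative, from -0.95 to -0.07. What part the background plays in the ANGPT1 difference was not tested further.

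**Figure D4:**
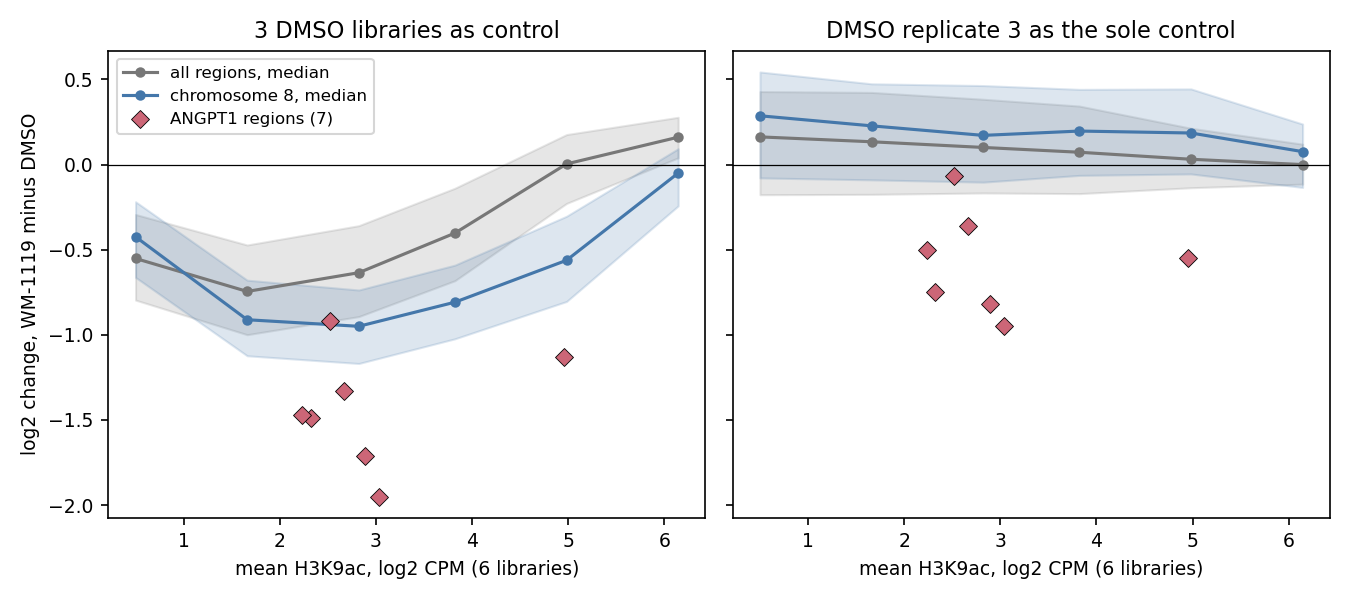
Log2 change (WM-1119 minus DMSO) of the 7 ANGPT1 regions (red diamonds) against mean H3K9ac as log2 CPM, beside the median and quartile band of all tested regions (grey) and of chromosome 8 regions (blue) in bins of strength, up to 100 CPM; the left panel uses 3 DMSO libraries as control and the right DMSO replicate 3 alone. The ANGPT1 start region lies at -1.13 on the left, where chromosome 8 regions of its strength have a median of -0.56, and at -0.55 on the right, where they have 0.19.

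Counted over all members, 43 of the 44 regions could be tested, and by limma 0 passed, where 0.0603% of all tested regions passed as lower and 0% as higher; a region had to reach a mean of 1 CPM over the 6 libraries, and the MECOM region did not. By edgeR on the recovered reads of 5 libraries 0 passed as well. Before adjustment, 5 of the 43 had an edgeR p below 0.05, beside 2086 of all 44763 tested regions. The signs and genes of those 5 are not given here. At an unadjusted limma p under 0.05, 10 member regions were lower and 0 higher. Over all tested regions that share was 10.8% lower and 2.58% higher, and 6 of the 10 were ANGPT1 regions. Of the 32436 tested regions away from RefSeq starts 4474 were lower at that p. Groups did not overlap in 10 member regions, all lower in WM-1119, where 13.2% of all tested regions were lower and 3.76% higher in that way. Away from RefSeq starts 16.3% of tested regions were lower in that way, and within 1 kb of one 5.05%. Outside chromosome 8 the groups did not overlap in 7 of the 36 tested member regions. The median log2 change was -0.61 over the members, -0.56 over those off chromosome 8 and -0.47 over all tested regions. By strength, the 13 tested members under 2 CPM had a median of -0.42 beside -0.55 for all such regions, and the 12 members of 2 to 5 CPM had -0.83 beside -0.75. The 10 members of 5 to 10 CPM had -0.79 beside -0.64, the 5 members of 10 to 20 CPM -0.57 beside -0.40, and the 2 members of 50 to 100 CPM 0.15 beside 0.16. The single member of 20 to 50 CPM, the ANGPT1 start region, had -1.13 beside 0.00. By class, 7 of 9 start regions, 27 of 28 internal and 6 of 6 flanking regions were lower, with medians of -0.55, -0.66 and -0.37. Among all tested regions 77.2% were lower, with 43.1% of those within 1 kb of a RefSeq start (median 0.06) and 90.2% of the others (median -0.62), so that the internal and flanking shares lie near that of regions away from starts. With DMSO replicate 3 as the sole control the medians were -0.10, -0.07 and 0.15, beside 0.08 for all regions. The 0 calls became 21, all lower, without DMSO replicate 3, where 19637 regions of the whole table passed.

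**Figure D5:**
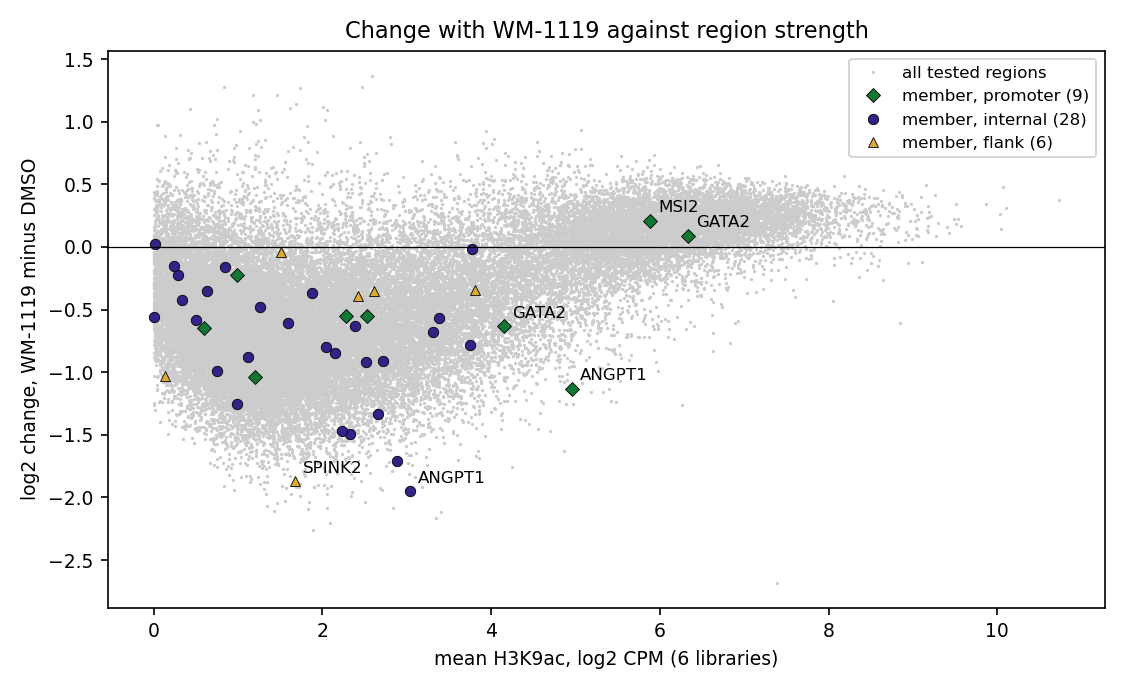
Log2 change (WM-1119 minus DMSO) against mean H3K9ac as log2 CPM for all 44763 tested regions (grey) and the 43 tested member regions, as start (promoter, green diamonds), internal (blue circles) and flanking regions (yellow triangles). Weak regions lie mostly below 0 among members and among all regions, while the strongest regions, with MSI2 and the inner start of GATA2 among them, lie at or above 0.

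Other genes of the stem and progenitor programme were read from 4 lists. Of 16 transcription factor genes 11 had a start region, with a median of 118 CPM, and 0 passed by limma. MEIS1, the homeobox cofactor of HOXA9, measured 666 ± 163 CPM under DMSO and 708 ± 63.9 CPM under the inhibitor (SD over 3 libraries each), GFI1, a zinc finger repressor, 531 ± 99.4 and 641 ± 61.0 CPM, and ETV6, an ETS repressor, 356 ± 116 and 435 ± 19.8 CPM. ERG, FLI1, HMGA2, MYCN and PRDM16 had no start region. Of 16 surface and niche receptor genes 10 had a start region, led by FLT3 with 281 ± 100 and 256 ± 33.6 CPM, CXCR4, the chemokine receptor for niche retention, with 156 ± 30.3 and 179 ± 4.89 CPM, and CD47, the signal against phagocytosis, with 64.0 ± 3.50 and 79.5 ± 2.13 CPM. The receptor of ANGPT1, TEK, was among those without, as were THY1, CD99, CLEC12A and HAVCR2. The leukaemia stem cell score of 17 genes, read without CD34, had start regions at 9 of 16 genes and a mean of at least 10 CPM at 4, led by the cell cycle kinase gene CDK6 (529 CPM), the cytokine signalling inhibitor gene SOCS2 (231 CPM) and LAPTM4B, a lysosomal membrane protein gene (56.8 CPM), as means of 6 libraries. Of 18 partners of the members 15 had a start region. Highest in mean CPM were IGF2BP2, an RNA-binding protein gene (580 CPM), LYN, a kinase acting below KIT (276 CPM), and HDAC2, a deacetylase gene (214 CPM). KITLG, the ligand of KIT, held 1.54 CPM, and GATA1 had no start region. Passing regions numbered 0 by limma in each of the 4 lists; at an unadjusted p under 0.05, 0 were lower and 3, 0, 0 and 4 higher, in the order given, and median log2 changes were 0.20, -0.05, -0.05 and 0.19. Over all tested regions 10.8% were lower and 2.58% higher at that p. Among regions of at least 100 CPM, where the stronger genes of the lists lie, 614 of 2525 were higher at that p. By sign alone 2336 of the 2525 were higher, and the median log2 change was 0.23. Signs depend on the scaling: quantile normalization turned the log2 change of MEIS1 from 0.11 to -0.06, of CDK6 from 0.15 to -0.07, of SOCS2 from 0.03 to -0.19, of LAPTM4B from 0.03 to -0.09 and of IGF2BP2 from 0.12 to -0.11, and median centring turned FLT3 from -0.09 to 0.68.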

How the data were processed

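H3K9ac chromatin immunoprecipitation libraries of MOLM-13 cells, 3 with DMSO and 3 with WM-1119 by their titles, were analysed; the 6 input samples were not analysed here. Tools named in the submitters' processing notes are MACS2, Bowtie2, bedtools and SAMtools, with neither roles nor versions, and the build is hg38. The deposited table is named TPM by the authors, but its values are CPM: they sum to 1000000 per library and low values are whole multiples of 1 step, whatever the width (100% of values under 100 reads were within 0.02 reads of a whole number in 5 libraries; the step of WM-1119 replicate 2 is too near a round value). Starts were read as counted from 0 and raised by 1.

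The member genes, lists and tests were chosen with earlier results of these data known. Treatment was the sole term of the limma 3.58.1 fit (R 4.3.3; trend and robust options on) of log2(CPM + 1), over all regions whose mean reached 1 CPM. Genes, starts and promoter sequences came from RefSeq (GRCh38.p14); all 10 members and all genes of the further lists matched, and 9 members had a start entry. Exon positions were not used. All start regions of members were named, with other member regions of at least 10 CPM or the strongest, and the 3 strongest genes of each further list; further regions and genes were named with their values known. Some list genes are not reported here by name.

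Alternatives were pseudocounts of 0.1 and 5, other filters, quantile normalization, median centring, a replicate block, leaving out libraries, DMSO replicate 3 as the sole control, background subtraction per library and chromosome, edgeR 4.0.16 on recovered reads, and a start window of 2.5 kb. On simulated data with 200 altered regions of at least 10 CPM, limma recovered 11% of 2-fold and 92% of 4-fold differences among 43152 regions, edgeR 15% and 94% among 44763. The simulated libraries shared the same mean profile, without the raised share of weak regions in DMSO replicates 1 and 2. These rates therefore need not hold here, and only 8 member regions reached 10 CPM. No pair of the 5 recovered libraries agreed within sampling noise. The smallest chi-square per degree of freedom was 1.55, between DMSO replicates 1 and 2, where the other pairs had 3.2 to 10.3. WM-1119 replicate 2 was not in that check. Figures were made with Python 3.11.15 and matplotlib 3.10.9.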

Additional observations from a re-analysis of the deposited data

How the results depend on the processing

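No member region passed with either pseudocount, without a filter, with a minimum mean of 10 CPM, with either scaling, with DMSO replicate 3 as the sole control or by edgeR. After background subtraction 1 passed, and with 1 library left out 0 to 21 did. Among all tested regions 27 passed; this was 2 with a minimum mean of 10 CPM, 1 with quantile normalization, 2 with median centring, 92 after background subtraction, 0 by edgeR (2086 at an unadjusted p under 0.05) and 0 to 19637 with 1 library left out, the highest without DMSO replicate 3. A start window of 2.5 kb gave 13 start regions in place of 10. The labels do not say whether replicate numbers pair the libraries. Deviations of same-numbered libraries correlated at 0.223, 0.0528 and 0.328. For DMSO replicates 1 and 3 this was the highest value, while DMSO replicate 2 correlated at 0.0554 with WM-1119 replicate 1. These values do not settle the pairing. With a replicate block 496 regions of the table and 4 member regions passed, of ANGPT1 (3, with an adjusted p of 0.000315 at the start region) and SPINK2 (1). Of 262 alternative values for 17 named member regions 39 changed sign, the causes of which were not tested, and 13 passed where the reported value did not.

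Signs turned with quantile normalization for CD34_207873107 (0.33), KIT_54658680 (0.16), GATA2_128486809 (-0.09), GATA2_128497261 (0.03), MSI2_57604782 (0.43), SPINK2_56799792 (0.27) and SPINK2_56821335 (0.20), named by gene and start. Median centring, which raises every log2 change by the same amount, turned CD34 to 0.42, KIT_54658374 to 0.12, KIT_54658680 to 0.22, GATA2_128491827 to 0.15, GATA2_128497261 to 0.43, HLF to 0.56, MSI2_57604782 to 0.75, MSI2_57636852 to 0.20, SPINK2_56799792 to 0.38 and SPINK2_56821335 to 0.23. With DMSO replicate 3 as the sole control CD34 was at 0.33, KIT_54658374 at 0.25, KIT_54658680 at 0.20, GATA2_128497261 at 0.52, MSI2_57255520 at -0.13, MSI2_57604782 at 0.44, MSI2_57636852 at 0.35 and SPINK2_56799792 at 0.48. edgeR gave 0.17 for CD34, 0.06 for KIT_54658680 and 0.37 for MSI2_57604782. Background subtraction turned MSI2_57604782 to 0.73, and a pseudocount of 0.1 turned HLF to 0.26. With 1 library left out GATA2_128486809 ran from -0.13 to 0.20, HLF from -0.89 to 0.53, MSI2_57255520 from -0.02 to 0.38, MSI2_57604782 from -0.26 to 0.33 and SPINK2_56799792 from -0.83 to 0.06. Depth limits the weak regions: DMSO replicate 1 rests on at most 18 reads in every member region but the inner GATA2, the MSI2 and the ANGPT1 start regions.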
